A study of Mus musculus with 13 samples.

Results

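The genes described here are 10 genes of the NRF2 antioxidant pathway, namely Nfe2l2, Keap1, Nqo1, Hmox1, Gclc, Gclm, Txnrd1, Srxn1, Slc7a11 and Gsr. They were taken by symbol, not by a cut on their values, from a glomerular expression table of 35967 gene symbols. Earlier results of these data were known when they were chosen. In total, 9 of the 10 passed the filter on low expression and were among the 14322 genes tested, and Slc7a11 did not pass. Male wild-type Balb/c mice received an intraperitoneal injection of 2 mg rabbit IgG. The control group (n = 5) received preimmune rabbit IgG and combines mice from both time points. The membranous nephropathy (MN) groups received rabbit IgG against THSD7A, a podocyte surface protein that is an autoantigen of human MN, and their glomeruli were collected at day 1 (n = 4) or day 5 (n = 4). Each library came from 1 mouse. In this passive transfer model the antibody is supplied rather than made by the mouse, and the controls also carry foreign IgG. Values are TPM, a transcript level corrected for transcript length and for the size of the library, from reads that the study assigned to transcripts.

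NRF2, encoded by Nfe2l2, is a transcription factor whose amount is set largely by protein degradation. KEAP1 is the adaptor that hands NRF2 to a CUL3 ubiquitin ligase, and oxidants or electrophiles that modify KEAP1 let NRF2 accumulate. NRF2 pairs with a small MAF protein on antioxidant response elements, and its targets make glutathione, reduce thioredoxin and peroxiredoxin, degrade heme and detoxify quinones. In the kidney this pathway is known best from tubular cells. The libraries measured RNA, so NRF2 protein was not assessed.

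The antioxidant response element core, TGACNNNGC on either strand, was searched in the RefSeq promoter windows (250 bases before to 50 bases after a start, defined on GRCm38.p6), because it is the element through which NRF2 acts. A window was given for 7 of the 10 genes, and 4 of these held the core. Among all 32851 windows 12.4% held it, and 14.0% of genes had at least 1 such window. Each stretch is printed with 10 bases on either side of the core, and capitals mark the core.
Nfe2l2: tcagcccaccTGACTCCGCcatgccccgg
Gclm: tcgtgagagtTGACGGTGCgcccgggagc
Txnrd1: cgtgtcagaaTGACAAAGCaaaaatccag
Srxn1: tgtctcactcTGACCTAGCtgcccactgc
All 4 stretches are written on the minus strand of GRCm39, where each had 1 exact match. The Nfe2l2 stretch lies at chr2:75535229-75535257 and its core starts 240 bases upstream of the RefSeq start, in exons of E030042O20Rik and Gm75256. The Gclm stretch lies at chr3:122039062-122039090, with the core 134 bases upstream. The Txnrd1 stretch lies at chr10:82694938-82694966, with the core 92 bases upstream of 1 of its starts and inside the Txnrd1 gene and an exon of Gm38560. The Srxn1 stretch lies at chr2:151947462-151947490 in the untranslated part of a Srxn1 exon, 29 bases after the start. None of the 4 cores overlapped an AP-1 element (TGACTCA or TGAGTCA). A match describes letters only, and Keap1, Nqo1 and Slc7a11 held no core in these windows.

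None of the 9 tested genes was called in any comparison. Of all genes tested, 0.0908% were called at day 1, 3.21% at day 5 and 1.81% between the days. The genes ordered by mean TPM were Nfe2l2 at 89.7, Gclm at 64.5, Keap1 at 50.4, Txnrd1 at 48.6, Gsr at 38.8, Gclc at 32.6, Hmox1 at 30.8, Srxn1 at 24.2, Nqo1 at 6.27 and Slc7a11 at 0.248. Keap1 and Txnrd1, and likewise Gclc and Hmox1, had ranges over the libraries that overlapped with similar means, and neighbours in this order were not tested against each other. These are bulk libraries, in which fewer cells of a type and less RNA per cell cannot be told apart.

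**Figure D1:**
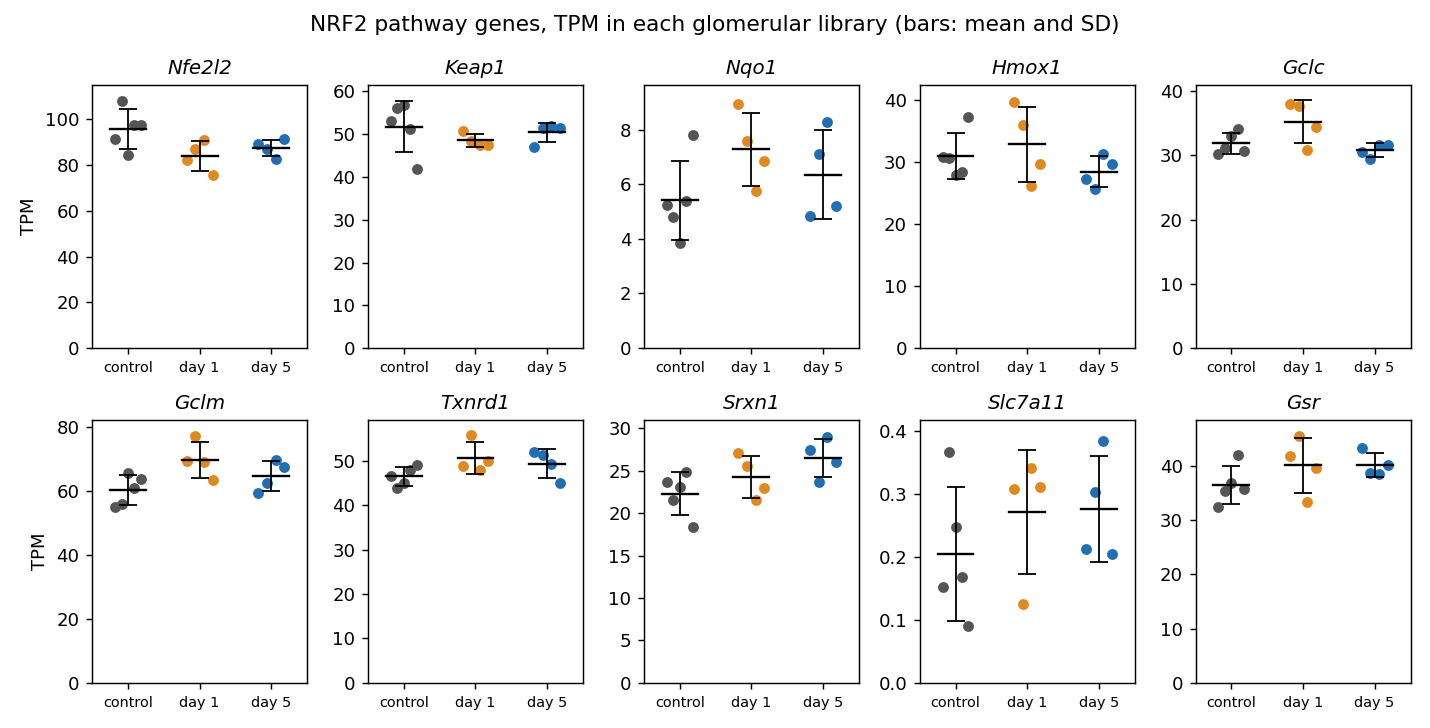
TPM (y axis, from 0, with its own scale for each gene) of the 10 genes in control, day 1 MN and day 5 MN libraries. Points are single mice and bars show the mean and SD; the groups overlap for every gene in the deposited TPM.

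Nfe2l2 (GRCm39 chr2:75504739-75534985, minus strand) was read at 91.4, 108, 84.5, 97.6 and 97.7 TPM in the controls, at 82.1, 87.2, 91.0 and 75.8 at day 1 and at 89.1, 86.9, 82.7 and 91.3 at day 5. The day 1 libraries sat low and the groups overlapped. Relative to control, Nfe2l2 gave a log2 fold change of -0.14 at day 1 (SE 0.08, limma adjusted p = 0.454) and -0.09 at day 5 (SE 0.08, adjusted p = 0.56). Keap1 (chr9:21141026-21150679, minus strand), the NRF2 inhibitor, was read at 53.0, 56.1, 56.7, 51.2 and 41.8 TPM in the controls, at 50.7, 48.5, 47.5 and 47.4 at day 1 and at 47.1, 51.4, 51.8 and 51.5 at day 5. Its lowest value was that of control 5, below every MN library. The Keap1 log2 fold changes were -0.04 at day 1 (SE 0.07, limma adjusted p = 0.861) and 0 at day 5 (SE 0.07, adjusted p = 0.985).

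Of the glutathione genes, Gclc, Gclm and Gsr had their highest single values at day 1. Gclc (chr9:77661797-77701770), the catalytic subunit of glutamate-cysteine ligase, which makes the first bond of glutathione, measured 30.3, 31.2, 33.1, 34.1 and 30.7 TPM in the controls, 38.0, 37.7, 30.9 and 34.4 at day 1 and 30.6, 29.5, 31.7 and 31.6 at day 5. Day 1 MN 1, 2 and 4 were above every control, and day 1 MN 3 was within the control range. The log2 fold change was 0.18 at day 1 (SE 0.07, limma adjusted p = 0.332), -0.01 at day 5 (SE 0.07, adjusted p = 0.957) and -0.20 from day 1 to day 5 (SE 0.08, adjusted p = 0.221). Gclm (chr3:122039126-122065061), the modifier subunit of the same ligase, measured 55.0, 55.9, 65.7, 60.8 and 63.6 TPM in the controls, 69.3, 77.2, 68.9 and 63.4 at day 1 and 59.2, 62.5, 69.6 and 67.5 at day 5. Day 1 MN 1, 2 and 3 exceeded all controls, and day 1 MN 4 did not. Its day 1 log2 fold change of 0.26 (SE 0.08) had the lowest adjusted p of the 9 genes at that day, 0.244 by limma, and the day 5 value was 0.14 (SE 0.08, adjusted p = 0.332).

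Gsr (chr8:34142551-34188192), glutathione reductase, measured 32.4, 35.4, 36.8, 42.1 and 35.8 TPM in the controls, 41.9, 45.6, 33.4 and 39.6 at day 1 and 43.3, 38.7, 38.5 and 40.3 at day 5. Control 4 lay within the range of both MN groups. Gsr gave a log2 fold change of 0.18 at each day (SE 0.1, limma adjusted p = 0.492 at day 1 and 0.366 at day 5). Slc7a11 (chr3:49846975-50398070, minus strand), the cystine importer, was near 0, with 0.153, 0.367, 0.248, 0.169 and 0.0902 TPM in the controls, 0.309, 0.126, 0.341 and 0.312 at day 1 and 0.213, 0.303, 0.384 and 0.205 at day 5. It was left out of the main fit for its low TPM, and in a fit without that filter its log2 fold change was 0.15 at day 1 (SE 0.12, limma adjusted p = 0.748) and 0.16 at day 5 (SE 0.12, adjusted p = 0.653).

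Of the thiol reducing genes, Srxn1 was the one whose scaled values separated at day 5. Txnrd1 (chr10:82669785-82733546), cytosolic thioredoxin reductase, measured 46.5, 43.9, 45.0, 47.8 and 49.1 TPM in the controls, 48.9, 55.8, 47.8 and 50 at day 1 and 52.0, 51.2, 49.3 and 44.9 at day 5, with overlapping groups. The Txnrd1 log2 fold change was 0.17 at day 1 (SE 0.08, limma adjusted p = 0.394) and 0.12 at day 5 (SE 0.08, adjusted p = 0.428). Srxn1 (chr2:151947436-151957687), sulfiredoxin, which restores overoxidised peroxiredoxins, measured 23.7, 21.5, 23.1, 24.8 and 18.4 TPM in the controls, 27.1, 25.5, 21.6 and 23.0 at day 1 and 27.4, 23.7, 29.0 and 26.0 at day 5. In the deposited TPM day 5 MN 2 lay below control 4. After division by the libraries' scaling factors the highest control was 24.2 and the lowest day 5 library 24.3, so this separation depended on the scaling. The Srxn1 log2 fold change was 0.28 at day 5 (SE 0.09, interval 0.08 to 0.48), with the lowest adjusted p of the 9 genes at that day (0.0987, limma), and 0.17 at day 1 (SE 0.09, adjusted p = 0.478).

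Nqo1 and Hmox1, inducible genes often read as signs of NRF2 activity, had the largest standard errors of the 9 tested genes. Nqo1 (chr8:108113835-108129934, minus strand), a quinone reductase, measured 5.22, 4.81, 3.86, 5.37 and 7.79 TPM in the controls, 8.92, 7.59, 5.75 and 6.86 at day 1 and 4.82, 7.11, 8.27 and 5.2 at day 5. All day 1 libraries exceeded controls 1 to 4, and control 5 exceeded 3 of the 4 day 1 libraries. The log2 fold change was 0.46 at day 1 (SE 0.20, interval 0.02 to 0.89, limma adjusted p = 0.382) and 0.25 at day 5 (SE 0.20, adjusted p = 0.561). Hmox1 (chr8:75820241-75827217), heme oxygenase, measured 30.8, 30.6, 27.9, 28.4 and 37.2 TPM in the controls, 39.7, 35.9, 26.1 and 29.6 at day 1 and 27.2, 25.6, 31.3 and 29.7 at day 5. Its lowest and highest day 1 values lay on either side of all controls. The Hmox1 log2 fold change was 0.12 at day 1 (SE 0.13, limma adjusted p = 0.741) and -0.08 at day 5 (SE 0.13, adjusted p = 0.782).

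At day 1, 0 of the 9 genes were called by limma (adjusted p under 0.05 and absolute log2 fold change above 0.5), where 0.0908% of all genes tested were. At an unadjusted p under 0.05 there were 4, Nqo1, Gclc, Gclm and Txnrd1, all higher, against 12.6% of all genes. That number was 1 without control 1, day 1 MN 1 or day 1 MN 2, and 2 without control 2 or day 1 MN 4. The median log2 fold change of the 9 was 0.17, and 0 for all genes. At day 5, 0 were called, against 3.21% of all genes, and Srxn1 was the only 1 of the 9 at an unadjusted p under 0.05, against 20.1% of all genes. The day 5 median was 0.12. Both comparisons share the control libraries. From day 1 to day 5, 0 were called, against 1.81% of all genes, and Gclc alone had an unadjusted p under 0.05, against 15.5% of all genes. The median of that comparison was -0.05. Scaled TPM of the groups did not overlap for 0 of the 9 at day 1 (3.5% of all genes), for 1, Srxn1, at day 5 (10.7% of all genes), and for 0 between the days (10.6% of all genes).

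Each interval covers 1 gene in 1 comparison, in bulk RNA and under the model with group alone. In each comparison the 95% interval of 8 of the 9 genes lay inside a log2 fold change of 0.5 in either direction, the size asked of a called gene. The exception was Nqo1, whose intervals reached 0.89 at day 1, 0.68 at day 5 and -0.67 from day 1 to day 5.

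**Figure D2:**
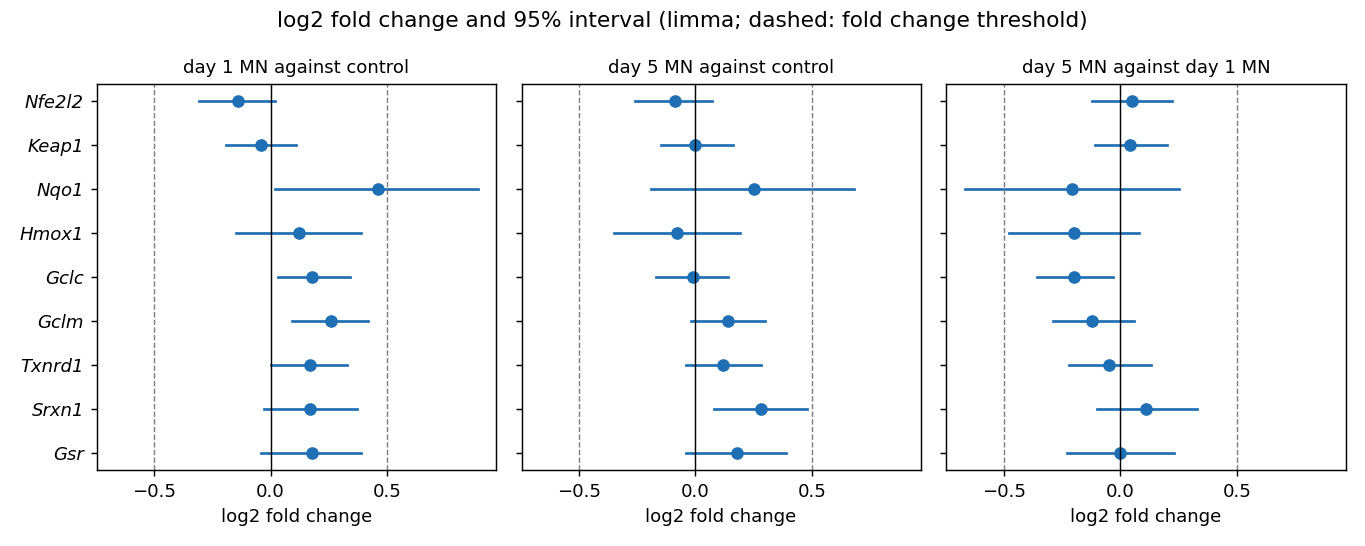
Log2 fold change (x axis; points) with its 95% interval (lines) of the 9 tested genes (y axis) in 3 comparisons, from the limma fit over all genes. Dashed lines mark the fold change asked of a called gene (0.5), which only the Nqo1 intervals cross.

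Tubular RNA differed between the libraries and was examined beside these genes, and its part in their differences was not tested beyond the values given here. The markers of podocytes, glomerular endothelium and mesangium, 26 in all, passed the filter, with summed levels of 7203 to 9612, 7713 to 12093 and 1954 to 3156 TPM. Endothelial markers had median log2 fold changes of 0 at day 1 and 0.16 at day 5 (7 of 8 positive at day 5). Mesangial markers had -0.01 and 0.14 (7 of 8). None of either list was called by limma. Emcn of the endothelium (0.29, limma adjusted p = 0.0127) and Serpine2 of the mesangium (0.42, adjusted p = 0.0113) passed at day 5 on the adjusted p alone. Podocyte markers had a median log2 fold change of -0.19 at day 1 (9 of 10 negative, 0 called by limma, 4 at an unadjusted p under 0.05) and of -0.21 at day 5, where Plce1 was called (-0.60, limma adjusted p = 0.0106) and Synpo (-0.46, adjusted p = 0.00197) and Cd2ap (-0.29, adjusted p = 0.0117) passed on the adjusted p alone. Proximal tubule markers (14 of 14 tested) summed to 2585 to 9620 TPM in the controls, with control 5 the highest, to 4729 to 8366 at day 1 and to 3393 to 4091 at day 5. Their log2 fold changes at day 1 were positive in 14 of 14, with a median of 0.76 and 0 called (11 at an unadjusted p under 0.05, limma), and at day 5 the median was -0.02. Loop, distal and collecting duct markers, 9 of 10 tested, summed to 269 to 544 TPM in the controls, 519 to 947 at day 1 and 361 to 493 at day 5. Their log2 fold changes at day 1 were positive in 9 of 9, with a median of 0.63 and 0 called (4 at an unadjusted p under 0.05, limma). At day 5 the median was -0.12 with 0 called. From day 1 to day 5 it was -0.96 with 2 called lower, against -0.81 and 0 called for proximal tubule markers. Over all genes 1.81% were called between the days. The score used below holds proximal tubule markers only. Leukocyte markers, 10 of 12 tested, summed to at most 80.0 TPM, with Cd3e under 1 TPM in every library. Their median log2 fold changes were 0.12 at day 1 (8 of 10 positive) and 0.34 at day 5 (9 of 10 positive). At either day 0 were called by limma, with 1 at day 1 and 3 at day 5 at an unadjusted p under 0.05. Red blood cell markers, 5 of 6 tested, summed to 207 to 472 TPM in the controls, 92.2 to 282 at day 1 and 205 to 473 at day 5, with median log2 fold changes of -0.78 (4 of 5 negative) and 0.35 and 0 called by limma (2 and 0 at an unadjusted p under 0.05). Markers of dividing cells rose at day 5, with 7 of 8 called and a median log2 fold change of 2.09. Over all genes tested, 0.0908% were called at day 1 and 3.21% at day 5, and 12.6% and 20.1% had an unadjusted p under 0.05 by limma.

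Several of the 9 genes moved with the proximal tubule score, the mean log2 level of its 14 markers, over the 13 libraries (9 relations, permutation tests with 100000 resamples, Benjamini-Hochberg adjusted). The permutations shuffled all 13 libraries without regard to group, and the score differed between groups. Their p-values therefore do not separate a relation between libraries from a group difference shared by gene and score. Nqo1 rose with the score (Pearson r = 0.72, permutation p = 0.00644, adjusted 0.0239; Spearman rho = 0.74, permutation p = 0.00456, adjusted 0.0297), and r was 0.58 without the 2 libraries farthest from the median score, day 1 MN 1 and control 5. Gclm rose likewise (r = 0.70, permutation p = 0.00681, adjusted 0.0239; rho = 0.68, permutation p = 0.0125, adjusted 0.0297; 0.78 without those 2). For Gclc, r was 0.66 (permutation p = 0.0125, adjusted 0.0239; rho = 0.68, permutation p = 0.0132, adjusted 0.0297; 0.77 without those 2). Keap1 fell with the score (r = -0.68, permutation p = 0.00816, adjusted 0.0239; rho = -0.73, permutation p = 0.00691, adjusted 0.0297; -0.68 without those 2). The Hmox1 relation rested on those 2 libraries (r = 0.67, permutation p = 0.0133, adjusted 0.0239; rho = 0.50, permutation p = 0.0856, adjusted 0.128; r = 0.36 without them).

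The other 4 genes did not pass the adjusted threshold. For Txnrd1, r was 0.58 (permutation p = 0.0368, adjusted 0.0552; rho = 0.54, permutation p = 0.0581, adjusted 0.105; r = 0.65 without the same 2 libraries), and for Gsr it was 0.43 (permutation p = 0.143, adjusted 0.184; rho = 0.43, permutation p = 0.14, adjusted 0.18; r = 0.53 without them). For Nfe2l2, r was -0.30 (permutation p = 0.315, adjusted 0.354; rho = -0.16, permutation p = 0.591, adjusted 0.665; r = -0.59 without them). Srxn1 showed no trend (r = 0.00, permutation p = 0.989; rho = 0.12, permutation p = 0.71; r = 0.29 without them). No group holds 6 libraries, so no r was taken within a group, and after each group's mean was removed the pooled r was 0.65 for Nqo1, 0.58 for Gclm, 0.62 for Hmox1, 0.39 for Gclc and -0.73 for Keap1. No p-value was computed for these pooled r.

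With the score as a term in the limma fit, 0 of the 9 genes had an unadjusted p under 0.05 at day 1. That fit called 0 of all 14322 genes tested at day 1, against 13 in the main fit. Its share of all genes at an unadjusted p under 0.05 is not given here. In the fit with the score, the day 1 log2 fold change of Nqo1 was 0.13 (interval -0.32 to 0.57) and that of Gclm 0.15 (interval -0.03 to 0.33). The signs of Keap1 (0.08) and Hmox1 (-0.08) at day 1 were turned, neither called. The Srxn1 value at day 5 stayed at 0.28 (adjusted p = 0.101, limma). The score and day 1 go together in these libraries, so their parts in the day 1 values cannot be told apart. Without control 5, the control library with the highest score, the day 1 log2 fold change was 0.60 for Nqo1 (limma adjusted p = 0.115) and 0.29 for Gclm (adjusted p = 0.0749), and 0 of the 9 genes were called. Of all 14257 genes tested in that fit, 218 were called.

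**Figure D3:**
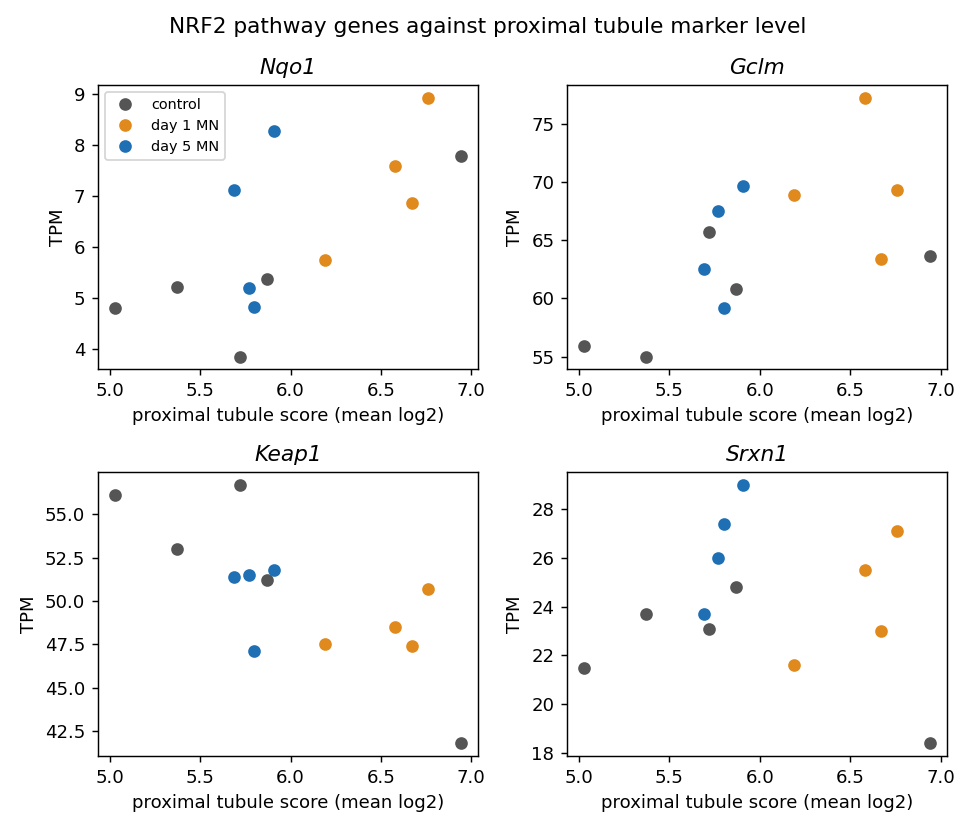
TPM of Nqo1, Gclm, Keap1 and Srxn1 (y axes, not starting at 0) against the proximal tubule score (x axis, mean log2 level of 14 markers), with 1 point per library colored by group. Nqo1 and Gclm are higher and Keap1 is lower in libraries with a high score, and control 5, at the right edge, sits with the day 1 libraries on the x axis.

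The genes also varied with each other. Over 36 pairs of the 9 genes the median Pearson r across the 13 libraries was 0.35, from -0.48 for Keap1 and Nqo1 to 0.73 for Txnrd1 and Gsr, and 23 pairs were positive. The libraries share normalization and tubular RNA, so these values are given as a description. With each group's mean removed, the median was 0.22. Day 1 MN 3, the day 1 library with the lowest score (6.19), gave the lowest day 1 value of 6 of the 9 genes. Day 1 MN 1, with the highest (6.76), gave the highest day 1 value of 5. Other libraries did not follow the score in this way. Day 1 MN 4 (6.67) gave the highest day 1 value of 0 genes and the lowest of 3. Control 5 (6.94) gave the highest control value of 3 genes and the lowest of 2. Among 11194 genes, those most like Nfe2l2 over the 13 libraries by Pearson r were Card6 (0.87), Zfp251 (0.87), Pigm (0.86), Mapk14 (0.85) and Entr1 (0.84). Those most like Nqo1 were Slc16a13 (0.89), Fpgs (0.87), Glb1 (0.86), Cela1 (0.84) and Bicc1 (0.84). Both lists were picked as the highest of 11194 values over 13 libraries, and such picking gives high r also among unrelated genes. No test was made, and shared regulation cannot be read from these values.

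Among partners and degraders of NRF2, Maff rose at both days. Maff (chr15:79230821-79243276), a small MAF protein that can pair with NRF2 and is itself inducible by many stimuli, measured 6.17, 5.68, 6.07, 7.86 and 5.59 TPM in the controls, 15.9, 18.9, 18.3 and 14.2 at day 1 and 19.0, 11.3, 10.4 and 12.5 at day 5. Every MN library was above every control. Maff had a log2 fold change of 1.40 at day 1 (SE 0.17, limma adjusted p = 0.00832) and 1.03 at day 5 (SE 0.17, adjusted p = 0.00254). With the proximal tubule score as a term, the day 1 value was 1.42 with an adjusted p of 0.0804, in a fit that called 0 genes in all at day 1. In all, 14 of the 16 listed genes were tested and Maff was the only 1 called, where 0.0908% of all genes were called at day 1 and 3.21% at day 5. At an unadjusted p under 0.05 there were 3 (21.4%) at day 1 and 5 (35.7%) at day 5, against 12.6% and 20.1% of all genes. The medians over the list were -0.06 at day 1 and -0.03 at day 5, against 0 for all genes at both days.

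The other small MAF genes went the opposite way at day 5, below the fold asked of a call. They are named because they passed on the adjusted p alone, seen after their values. Mafg measured 79.4 to 111 TPM in the controls and 60.7 to 75.1 at day 5 (log2 fold change -0.40, SE 0.1, limma adjusted p = 0.0373). Mafk measured 55.5 to 65.7 TPM in the controls and 46.9 to 52.5 at day 5 (log2 fold change -0.31, SE 0.07, limma adjusted p = 0.019). The most abundant genes of this list were Sqstm1, whose product p62 can sequester KEAP1, and the related factor Nfe2l1. Sqstm1 averaged 482 ± 12.7 TPM in the controls (SD, n = 5), 469 ± 11.1 at day 1 (n = 4) and 471 ± 31.7 at day 5 (n = 4), with log2 fold changes of 0.01 and 0. Nfe2l1 averaged 462 ± 38.1, 400 ± 39.3 and 397 ± 16.2 TPM, with log2 fold changes of -0.16 and -0.18 (limma adjusted p = 0.408 and 0.208).

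Of 24 other listed NRF2 target genes, among them conjugation and export genes, 20 were tested. At day 1, 0 were called by limma, against 0.0908% of all genes, with a median log2 fold change of 0.14. At an unadjusted p under 0.05 there were 3 (15%), against 12.6% of all genes. At day 5 the median was -0.11, and 5 (25%) had an unadjusted p under 0.05, against 20.1% of all genes. By the call, 1 rose and 0 fell at day 5, where 3.21% of all genes were called. The gene was Gstm4 (chr3:107947721-107952210, minus strand), a glutathione S-transferase, at 5.13, 5.3, 5.9, 3.61 and 5.06 TPM in the controls, 6.15, 6.42, 5.39 and 7.73 at day 1 and 7.01, 7.21, 8.0 and 7.69 at day 5. Every day 5 library was above every control, and the log2 fold change was 0.58 (SE 0.14, limma adjusted p = 0.0212). Reads of this family are shared between near-identical paralogs, so the level is uncertain, and 8 of 13 fits with 1 library left out kept the call (5 did not, those without control 4 or any 1 of the day 5 libraries). The most abundant genes were Ephx1, microsomal epoxide hydrolase, at 426 ± 33.6, 380 ± 38.2 and 366 ± 7.05 TPM, and Gstm1 at 367 ± 9.51, 382 ± 15.6 and 341 ± 9.18 TPM (SD, control, day 1 and day 5), neither called.

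Cyp2a5 (chr7:26534730-26542973), a cytochrome P450 gene, was lower at day 5 than at day 1. It measured 6.05, 6.48, 4.93, 5.49 and 8.03 TPM in the controls, 18, 7.43, 9.0 and 11 at day 1 and 3.4, 4.83, 6.55 and 2.04 at day 5. No day 5 library reached a day 1 library, while each MN group overlapped the controls. The log2 fold change from day 1 to day 5 was -1.37 (SE 0.30, limma adjusted p = 0.0315), and against the controls it was 0.81 at day 1 (adjusted p = 0.305) and -0.56 at day 5 (adjusted p = 0.304). With the proximal tubule score as a term the day difference was -1.12 (adjusted p = 0.262), and the call was lost, as it was without day 1 MN 1 (-1.13), day 1 MN 4 (-1.36), day 5 MN 1 (-1.33), day 5 MN 2 (-1.47) or day 5 MN 4 (-1.10). It was also lost with no filter on low TPM (limma adjusted p = 0.0695), without the controls in the model (0.0597) and with the replicate number as a block (0.0542).

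The products of Gsr, Txnrd1 and Nqo1 use NADPH, and the 6 genes of the NADPH supply list gave 0 calls at either day by limma. Over all genes 0.0908% and 3.21% were called. At an unadjusted p under 0.05 there were 4 (66.7%) at day 1 and 0 at day 5, against 12.6% and 20.1% of all genes. The medians were 0.19 and 0.08, and the day 1 values ran from -0.06 to 0.52. Tkt, transketolase, averaged 83.2 ± 5.83 TPM in the controls, 97.5 ± 13.2 at day 1 and 91.4 ± 10.6 at day 5, and Taldo1, transaldolase, 204 ± 4.9, 213 ± 4.86 and 208 ± 1.36.

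Of 27 glutathione, thioredoxin and peroxide genes 26 were tested, and 1 rose at day 5, Gpx7 (chr4:108257583-108264158, minus strand), a peroxidase of the endoplasmic reticulum. Gpx7 measured 13.7, 16.5, 18.4, 12.4 and 12.8 TPM in the controls, 18.6, 16.0, 18.5 and 17.7 at day 1 and 22.5, 19.8, 30.1 and 20.7 at day 5. All day 5 libraries exceeded all controls and all day 1 libraries. The log2 fold change was 0.67 at day 5 (SE 0.13, limma adjusted p = 0.00575), and it was past the threshold in all 25 alternatives computed. None of the list was called at day 1 by limma. Over all genes 0.0908% were called at day 1 and 3.21% at day 5. At an unadjusted p under 0.05 there were 7 (26.9%) at day 1 and 5 (19.2%) at day 5, against 12.6% and 20.1% of all genes. The medians of the list were 0.13 and 0.04. Gpx3, the plasma peroxidase that proximal tubule cells secrete, measured 1214, 1151, 1712, 2127 and 3631 TPM in the controls, 3083, 2688, 1931 and 3165 at day 1 and 1826, 1665, 1881 and 1536 at day 5. Control 5 was the highest library of all for Gpx3, and day 1 MN 3 the lowest of its group. Txnip, an inhibitor of thioredoxin, averaged 1323 ± 111 TPM in the controls, 1193 ± 125 at day 1 and 1113 ± 65.6 at day 5, and was not called.

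Heme and ferritin genes (9 of 9 tested) gave 0 calls by limma, against 0.0908% of all genes at day 1 and 3.21% at day 5. At an unadjusted p under 0.05 there were 2 (22.2%) at each day, against 12.6% and 20.1% of all genes. The medians of the list were 0.09 and 0.04. The ferritin chains were among the most abundant transcripts, with Ftl1 at 2352 ± 133, 2380 ± 160 and 2366 ± 95.4 TPM and Fth1 at 1760 ± 167, 1917 ± 106 and 1644 ± 53.2 TPM (SD, control, day 1 and day 5). Slc48a1, a heme transporter named after its values were seen, passed on adjusted p alone at day 5 (log2 fold change 0.24, SE 0.06, limma adjusted p = 0.0248), with 225 to 254 TPM in the controls and 266 to 291 at day 5.

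Of 12 oxidant-generating enzymes 8 were tested, with 0 called by limma, against 0.0908% of all genes at day 1 and 3.21% at day 5. At an unadjusted p under 0.05 there were 2 (25%) at day 1 and 1 (12.5%) at day 5, against 12.6% and 20.1% of all genes. The medians of the list were 0.24 and 0.01. Cyba, the membrane subunit p22phox, averaged 184 ± 26 TPM in the controls, 225 ± 22.2 at day 1 and 181 ± 0.886 at day 5, and control 5 (230 TPM) lay with the day 1 libraries.

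**Figure D4:**
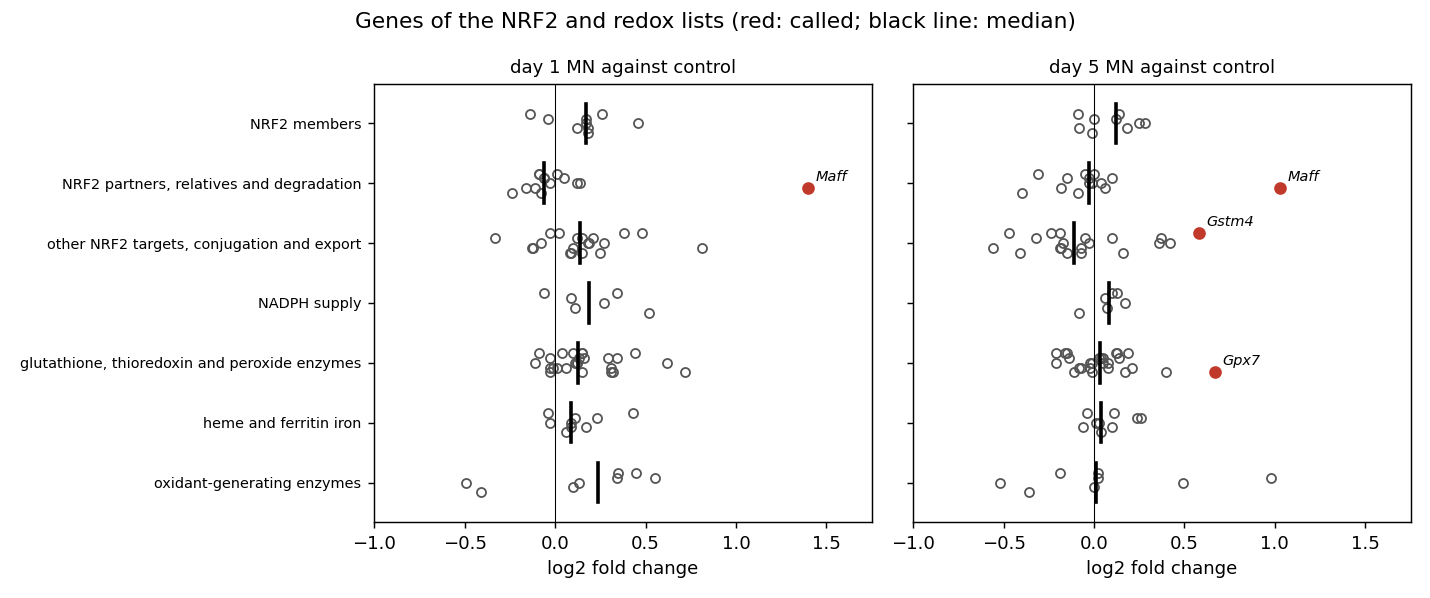
Log2 fold change (x axis) of each tested gene at day 1 and day 5 against control, by list (y axis), with a black line at the list median. Red points are the called genes, Maff at both days and Gstm4 and Gpx7 at day 5, and the NRF2 pathway genes lie between -0.14 and 0.46.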

How the data were processed

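Glomeruli were isolated from mice by perfusion with magnetic beads, and their RNA was sequenced. The study describes release by collagenase digestion or by mechanical dissociation, and names the mechanical route for co-immunoprecipitation. The route used for the RNA libraries is not stated. Per the labels and the study's methods, the authors trimmed reads with Trimmomatic 0.39, checked them with FastQC 0.11.9 and quantified them with kallisto 0.46.2 on GRCm39, and they deposited TPM with 1 value per gene symbol and library. TPM sums per library were 989774 to 996064. TPM keep no read depth, so depth is unknown and no counting interval is given. The authors tested counts with DESeq2, and counts were not used here.

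Each library was scaled by a median-of-ratios factor (0.955 to 1.04, from 15772 genes above 0 in every library), a pseudocount of 0.5 was added and log2 was taken, which understates changes of low genes. The 14322 genes that reached a TPM of 1 in 4 or more libraries were fitted in 1 model of all 13 libraries with limma 3.58.1 in R 4.3.3 (eBayes with trend), with Benjamini-Hochberg adjustment over all genes within each comparison. Standard errors are moderated, and the 95% intervals come from the same fit. Genes were called at an adjusted p under 0.05 where the log2 fold change also exceeded 0.5 in size, after the study's own thresholds. The fitting script was tested on simulated data. Correlations used Python 3.11.15 with scipy 1.17.1, and figures matplotlib 3.10.9.

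The 10 genes, the gene lists and the markers were chosen with earlier results of these data known. All 10 genes were named, and from each other list its called genes and its 2 genes of highest mean TPM, plus the 5 genes most like Nfe2l2 and Nqo1 (mean scaled TPM of at least 5). Genes that passed on the adjusted p alone were added after their values were seen. Listed genes left out by the filter were Slc7a11, Nfe2, Nfe2l3, Gsta1, Gstm3, Ugt1a6b, Aldh3a1, Gpx2, Nox1, Duox1, Duox2 and Mpo. Gene positions come from the GENCODE annotation of GRCm39 and promoter windows from RefSeq (GRCm38.p6), with printed stretches placed on GRCm39 by exact match. Replicate numbers label different mice. In 12 pairs of libraries sharing a number, deviations from the group means correlated at -0.056 to 0.091, so no pairing was used. Which controls were collected at which day is not given in the sources used here, so the controls could not be matched to the MN groups by day. Alternatives covered pseudocount, scaling, filter, trend, samples in the fit, weights, a replicate block, the proximal tubule score and each library left out. Proteomic data and other mouse lines of the study were not analysed here. Some results of genes under the naming rule are not reported here.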

Additional observations from a re-analysis of the deposited data

Results flagged for a closer look

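Within groups, 78 sets of values of 26 genes were checked for a library standing apart by Dixon's criterion, and 4 were found, where chance marks about 1 in 20. Keap1 in day 5 MN 1 was 47.1 TPM, below 51.4 to 51.8 in the others. Slc7a11 in day 1 MN 2 was 0.126 TPM, below 0.309 to 0.341. Maff in control 4 was 7.86 TPM, above 5.59 to 6.17. Cyba in control 5 was 230 TPM, above 168 to 179, and control 5 was also the control with the highest proximal tubule score (6.94, others 5.03 to 5.87). The part of tubular RNA in the Cyba value was not tested.

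The Cyp2a5 values of the MN groups differed between the days, with a log2 difference of -1.37 from day 1 to day 5 (limma adjusted p = 0.0315). The call was lost in 9 of 25 alternatives, among them the fit with the proximal tubule score (-1.12, limma adjusted p = 0.262, range over the alternatives 0.0239 to 0.262). For Gstm1, all day 1 libraries lay above the control mean and all day 5 libraries below it on the log2 scale after scaling. The difference of the days was -0.17, which did not pass (limma adjusted p = 0.136).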

How the results depend on the processing

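None of the 9 tested genes was called under any of 25 alternatives in any of the 3 comparisons, nor was Slc7a11 in the fit without a filter. The main fit called 0.0908% of all genes at day 1, 3.21% at day 5 and 1.81% between the days. At shares this low, a count of 0 among 9 genes is not a result about these genes. At an unadjusted p under 0.05 the number of the 9 ran from 0 (with the proximal tubule score) to 6 (without day 1 MN 3) at day 1, 1 to 2 at day 5 and 0 to 2 between the days. In the main fit 12.6%, 20.1% and 15.5% of all genes had such a p by limma, and these shares are not given for the alternatives. Of 675 fitted values of the 9 genes under alternatives, none called, 9 had the opposite sign to a main value that was not 0 at 2 decimals. Where the main value was 0 at 2 decimals, Keap1 at day 5 ran from -0.06 to 0.04 and Gsr between the days from -0.09 to 0.09. With the proximal tubule score as a term, Keap1 at day 1 was 0.08, Hmox1 at day 1 -0.08, and between the days Keap1 was -0.07, Nqo1 0.12 and Txnrd1 0.04. Under quantile normalization Gclc at day 5 was 0.01. With 1 library left out, Gclc at day 5 ran from -0.03 to 0.01 and Txnrd1 between the days from -0.09 to 0.01. With the replicate block, 0 of the 9 were called in each comparison, while 149, 348 and 331 of all genes were, against 13, 460 and 259 without it. The numbers mark different mice. Of the other named genes, the alternatives were run for Maff, Gpx7, Gstm4 and Cyp2a5 only, and of their values 284 were unchanged in call and 16 lost it. Gstm4 at day 5 had adjusted p of 0.0153 to 0.0895 over its alternatives (0.0895 with the replicate block), Cyp2a5 between the days 0.0239 to 0.262, Maff at day 1 7.8e-04 to 0.0804 and Gpx7 at day 5 0.00309 to 0.0227. With the score as a term 0, 480 and 159 of all genes were called, and without control 5 218 at day 1. The cause of these shifts was not tested.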
